A study of Homo sapiens with 6 samples.

Results

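The genes described here encode the collagens, the laminins and the integrins. They were taken by symbol from a table of 20036 genes: every COL gene with a number, an A and a second number, every LAMA, LAMB or LAMC gene with a number, and every integrin subunit gene, ITGA or ITGB with a number or letter. This gave 82 genes, of which 44 were collagens, 12 laminins and 26 integrins. Total RNA was sequenced from KGN, an established line of human ovarian granulosa tumour cells whose genotype is labelled WT. The cells had been transfected with Lipofectamine 3000 and a small interfering RNA (siRNA) and were harvested after 48 hours. Either of a pair of siRNAs against OGT mRNA (siOGT1 and siOGT2) was set against a negative control siRNA (siNC), with 2 libraries a group and 6 in all. OGT encodes the transferase that adds O-linked N-acetylglucosamine to nuclear and cytosolic proteins, and the series asked how its knockdown changes the transcriptome. All groups share the line, the reagent and the time, no untransfected cells were analysed here, and the labels do not say whether libraries of a group came from separate cultures. The p-values therefore measure only the spread between these libraries, which may be technical.

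Collagens are triple helices of 3 chains, secreted and laid down in the extracellular matrix either as fibrils (types I, III and V) or as networks and filaments (types IV, VI, VIII and X). Laminins are trimers of an alpha, a beta and a gamma chain that build the basement membrane together with type IV collagen. Integrins are the receptors that cells use to hold both, each a pair of an alpha and a beta subunit, and the pair decides which ligand is bound. In the ovary, granulosa cells lie on a basement membrane that they help to build, and the membrane changes its chains as the follicle grows.

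OGT mRNA was at 13.8 and 12.9 FPKM (fragments scaled to gene length and library depth) with siOGT1 and at 14.3 and 14.7 with siOGT2, against 22.4 and 23.4 with siNC. Both siRNAs thus left a partial knockdown, at 58.3% and 63.2% of the siNC mean. Worked out from the FPKM values, the library totals came to 16756649 to 21416489 reads. On that basis the tested genes described here had between 56 and 53101 reads per library. Of 12 granulosa markers, 7 passed the level filter, among them FOXL2, NR5A1 and INHBB. AMHR2, CYP19A1, INHA and WT1 were under the filter, and FSHR was listed at 0 in every library. The 12 markers together summed to 74.8 and 78.5 FPKM with siOGT1, 73.6 and 70.4 with siOGT2, and 71.9 and 72.9 with siNC. Leukocyte markers summed to between 0.858 and 1.18 FPKM per library with none of 7 tested, and LYZ was at 0 throughout. Endothelial markers summed to 2.10 to 2.95 FPKM, and 4 of 8 markers of fibroblasts and theca stroma were tested (LUM, PDGFRB, STAR and THY1), at a sum of 21.9 and 21.8 FPKM with siOGT1, 24.97 and 24.98 with siOGT2, and 22.8 and 21.7 with siNC. The epithelial keratins KRT8 and KRT18 were the tested members of their list, which summed to 29.4 and 30.6 FPKM with siOGT1, 32.1 and 34.2 with siOGT2, and 27.0 and 28.5 with siNC. For the mean of both siRNAs, INHBB, STAR, THY1, KRT8 and KRT18 passed as higher and KITLG and LUM as lower. The log2 fold changes were 0.47 for INHBB, 0.36 for STAR, 0.13 for THY1, 0.17 for each keratin, -0.15 for KITLG and -0.12 for LUM. Of these, INHBB and STAR passed with each siRNA alone, and THY1 and both keratins with siOGT2 only. LUM passed with siOGT1 (-0.24, adjusted p = 0.00663) but not with siOGT2 (-0.00, adjusted p = 0.983). KITLG passed with siOGT2 (-0.25, adjusted p = 0.00133) but not with siOGT1 (-0.05, adjusted p = 0.421). PDGFRB and NR5A1 did not pass for the mean, but PDGFRB was higher with siOGT2 (0.30, adjusted p = 0.00628) and NR5A1 with siOGT1 (0.14, adjusted p = 0.0494). Tested directly, PDGFRB (-0.38, adjusted p = 0.00344) and LUM (-0.24, adjusted p = 0.00736) were lower with siOGT1 than with siOGT2. KITLG was higher (0.20, adjusted p = 0.00778). The part of these markers in the results below was not tested. In such bulk RNA, fewer cells that express a gene and less of its RNA per cell cannot be told apart.

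Of the 82 genes, 39 had a mean of at least 1 FPKM over the 6 libraries and were tested: 17 collagens, 7 laminins and 15 integrins. COL1A1, the main chain of type I collagen, had the highest level of all, with 296 and 275 FPKM with siOGT1, 280 and 283 with siOGT2, and 270 and 258 with siNC. Among the laminins LAMC1, the gamma chain shared by most laminin trimers, stood above the rest, with siNC values of 87.0 and 88.4 FPKM. The beta chain LAMB2 came next, at 36.1 and 35.5 FPKM with siOGT1, 37.6 and 39.0 with siOGT2, and 36.9 and 38.6 with siNC. Among the integrins ITGA3, an alpha subunit of laminin receptors, had the highest deposited level, with 139 and 130 FPKM with siOGT1, 135 and 137 with siOGT2, and 130 and 126 with siNC. Neither LAMB2 (log2 fold change -0.03, adjusted p = 0.528) nor ITGA3 (0.08, adjusted p = 0.0764) passed the test described below, and COL1A1 and LAMC1 are described with their families.

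The other 43 genes were not tested. Of these, 22 averaged 0.1 to under 1 FPKM, 18 were lower but above 0, and COL6A5, COL22A1 and COL26A1 were listed at 0 in all 6 libraries. Just under the filter were COL4A6 at 0.828 FPKM and LAMA3, an alpha chain that assembles with LAMB3, at 0.721. Just over it were ITGA10 at 1.02, COL4A4 at 1.11 and COL9A3 at 1.24. Leukocyte integrins were low: ITGAM and ITGAX, both also in the leukocyte marker list, averaged 0.461 FPKM each and their partner ITGB2 averaged 0.401. COL2A1, the fibril collagen of cartilage, averaged 0.00412 FPKM. COL6A3, the remaining classical chain of type VI collagen, averaged 0.578 FPKM beside the well expressed COL6A1 and COL6A2. Comparisons of level between genes depend on the gene length that the authors divided by, which could be worked out from the values. It came to 18592 bases for LAMB1, 14561 for ITGB1 and 19336 for ITGAV, against 8140, 6011 and 8211 bases of joined exons in GENCODE release 29, so these genes would stand higher among the others with the shorter lengths. ITGB1, at a mean of 93.3 FPKM, would then be at 226 FPKM and above ITGA3 at 133. The ratio of 1 gene's FPKM between libraries does not depend on it, but the level filter and the test described below do.

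**Figure D1:**
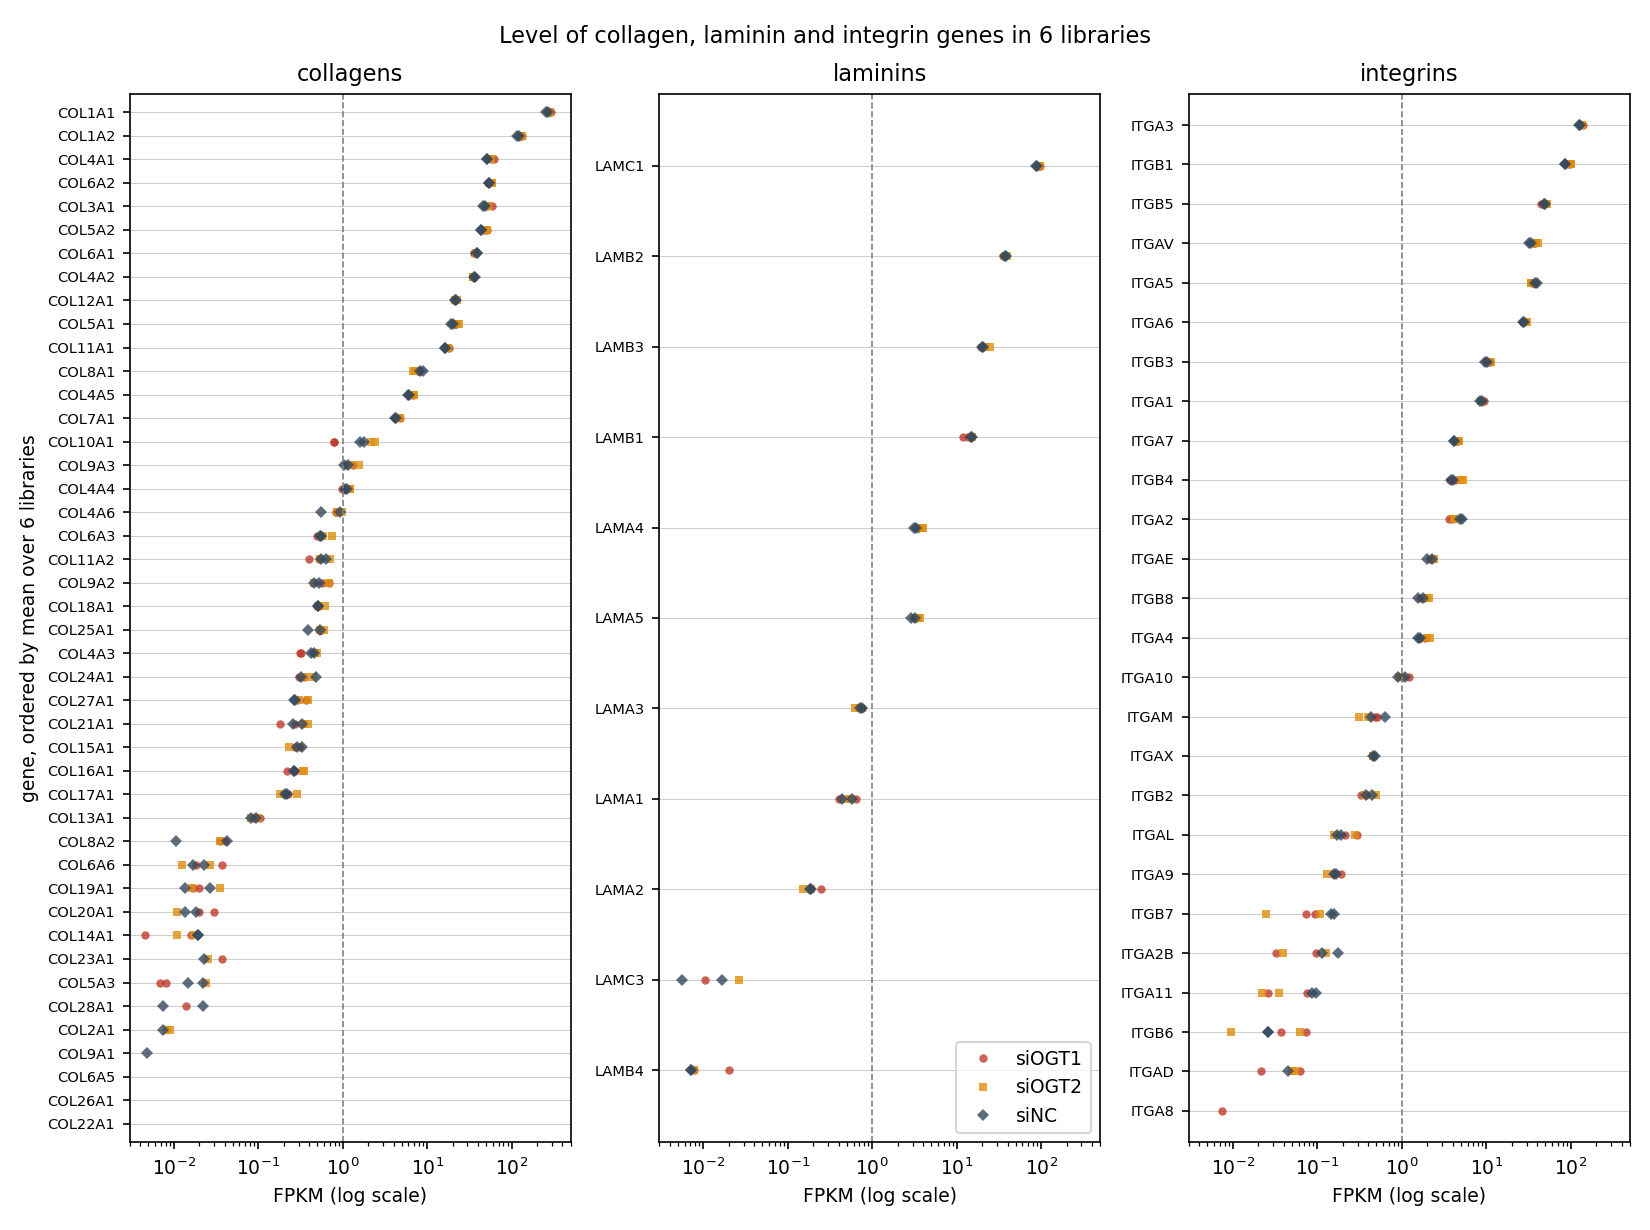
Level of the genes in FPKM (log axis), 1 panel a family, 1 point per library for siOGT1, siOGT2 and siNC; values of 0 and 1 laminin are not drawn and the dashed line marks 1 FPKM. The libraries of a tested gene lie close together on this scale, with COL1A1, LAMC1 and ITGA3 at the top of their panels and COL10A1 the tested gene whose siOGT1 points stand clear of the others.

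Changes were tested with limma on log2(FPKM + 1) over all 10547 genes above the filter, and a gene was called at an adjusted p under 0.05. The added 1 shrinks the fold changes of genes of low level. With the mean of both siRNAs against siNC, 13 of the 39 genes passed, 10 higher and 3 lower, with changes between -0.28 and 0.22 on the log2 scale. This was 33.3% of those tested, against 31.1% of all tested genes, of which 19.4% were higher and 11.8% lower. The median change was 0.09 over these genes and 0.04 over all genes. With siOGT1 alone 6 were higher and 4 lower, 25.6% against 17.6% of all genes (9.51% higher, 8.1% lower), with a median of 0.06 against 0.03. With siOGT2 alone 15 were higher and 3 lower, 46.2% against 35.5% of all genes (22.1% higher, 13.4% lower), with a median of 0.11 against 0.05. Both siRNAs were set against the same siNC libraries, so these comparisons are not independent. The share called was close to the background for the mean of both siRNAs, and nothing particular to the family follows from it. The balance of directions also moved with the scaling. After scaling by a trimmed mean of log ratios, 7 of these genes were higher and 5 lower for the mean of both siRNAs, 3 and 4 for siOGT1 and 7 and 3 for siOGT2, while over all genes 1134 were then higher and 1637 lower for the mean, 537 and 1020 for siOGT1 and 1437 and 1833 for siOGT2.

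**Figure D2:**
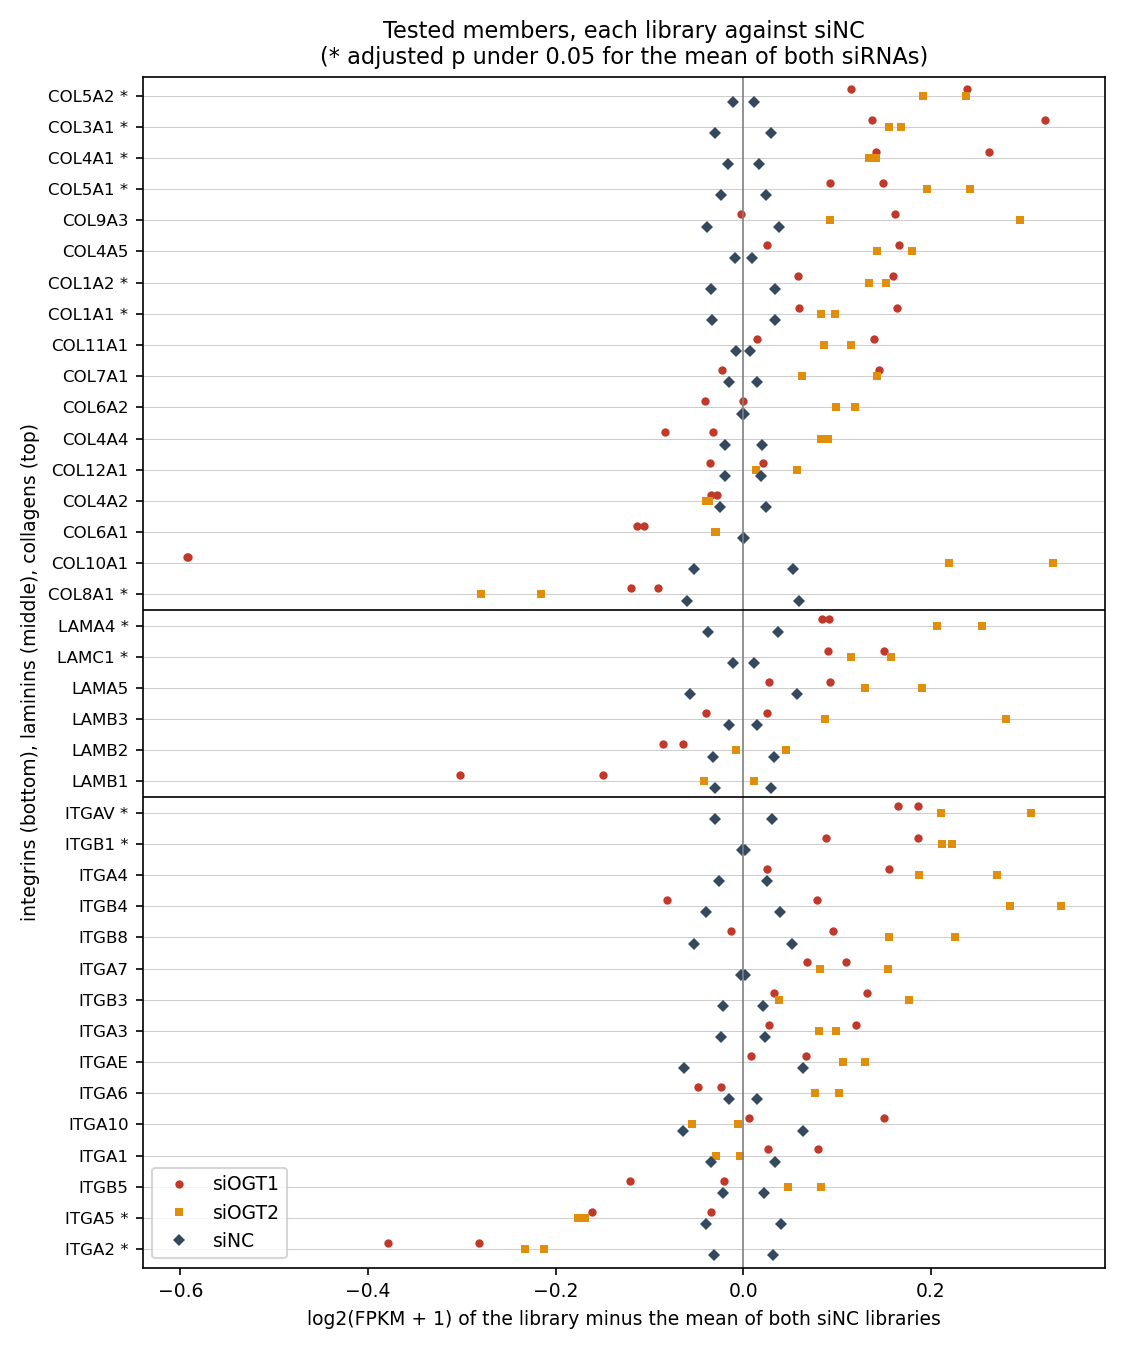
Difference of each library's log2(FPKM + 1) from the mean of both siNC libraries for the tested genes (1 laminin is not drawn), with siOGT1, siOGT2 and siNC as separate symbols and a star for genes that passed for the mean of both siRNAs. The starred genes lie between -0.28 and 0.22 on average, and COL10A1 has its siOGT1 points at the far left and its siOGT2 points to the right of siNC.

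The 5 tested chains of the fibril-forming collagens of types I, III and V rose for the mean of both siRNAs, with group means between 106% and 118% of siNC, though not all passed with each siRNA alone. COL5A3, the remaining type V chain, averaged 0.0127 FPKM and was not tested. COL5A2 (GRCh38, chr2:189031896-189225312, minus strand) encodes a chain of type V collagen, which starts type I fibrils and limits their width. It was at 51.6 and 47.3 FPKM with siOGT1, 51.5 and 49.9 with siOGT2, and 43.9 and 43.2 with siNC. All 4 knockdown libraries lay above both siNC libraries, and the gene changed by 0.20 ± 0.04 on the log2 scale (SE, adjusted p = 0.00403), with 0.18 for siOGT1 (adjusted p = 0.0197) and 0.21 for siOGT2 (adjusted p = 0.00456). Its partner COL5A1, on chromosome 9, had 22.0 and 21.1 FPKM with siOGT1, 22.7 and 23.5 with siOGT2, and 20.1 and 19.4 with siNC. Again the groups did not overlap, with a change of 0.17 ± 0.03 (adjusted p = 0.00505), and the value passed for siOGT2 (0.22, adjusted p = 0.00255) but not for siOGT1 (0.12, adjusted p = 0.0588). COL3A1, the homotrimeric type III collagen of soft tissues, which lies beside COL5A2 on chromosome 2, had 58.9 and 51.7 FPKM with siOGT1, 52.9 and 52.4 with siOGT2, and 47.9 and 45.9 with siNC. The first siOGT1 library was the highest, and the change was 0.20 ± 0.05 (adjusted p = 0.0119), with 0.23 for siOGT1 (adjusted p = 0.0175) and 0.16 for siOGT2 (adjusted p = 0.0411).

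The type I chains moved least among the called fibrillar genes. COL1A2 had 133 and 124 FPKM with siOGT1, 131 and 132 with siOGT2, and 122 and 116 with siNC, a change of 0.13 ± 0.03 (adjusted p = 0.0207). It passed with siOGT2 (0.14, adjusted p = 0.0201) but not with siOGT1 (0.11, adjusted p = 0.0875). COL1A1, with the values given above, changed by 0.10 ± 0.03 (adjusted p = 0.0496) and passed with neither siRNA alone (siOGT1 0.11, adjusted p = 0.0835; siOGT2 0.09, adjusted p = 0.103). Both type I calls were lost when libraries were scaled by the trimmed mean (adjusted p = 0.25 for COL1A1 and 0.107 for COL1A2). COL1A1 was lost in 9 of 16 settings, which included leaving out siNC replicate 1 (adjusted p = 0.077), siNC replicate 2 (0.336), siOGT1 replicate 1 (0.079), siOGT2 replicate 1 (0.0958) or siOGT2 replicate 2 (0.121). COL1A2 was lost for the mean without siNC replicate 2 (adjusted p = 0.191) or siOGT2 replicate 2 (0.0602), and for siOGT2 without siNC replicate 2 (0.14) or either siOGT2 library (0.0666 and 0.104). Without siNC replicate 2, the calls of COL3A1 (adjusted p = 0.112) and COL5A1 (0.0619) were lost too, whereas COL5A2 passed in every setting run for the mean of both siRNAs. The siOGT2 calls of COL5A1 and COL5A2 held in every setting run. Those of COL5A2 and COL3A1 with siOGT1 were lost without siNC replicate 1, siNC replicate 2 or siOGT1 replicate 1. The siOGT2 call of COL3A1 was lost without any 1 of the 4 libraries compared. Losses without the filter or the intensity trend, for these genes and those below, are listed at the end. The trimmed mean scaling also ended the siOGT1 call of COL5A2 (0.0631) and the siOGT2 calls of COL1A2 (0.102) and COL3A1 (0.143), and COL3A1 with siOGT2 was lost under equal FPKM sums (0.0758) and quantile normalization (0.058). Of the minor fibril collagens, COL11A1 averaged 17.1 FPKM with siOGT1, 17.4 with siOGT2 and 16.2 with siNC and did not pass (0.09, adjusted p = 0.115). COL12A1, a collagen that coats fibrils, had an interval of -0.06 to 0.09 around a difference of 0.01 (adjusted p = 0.776).

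Of the chief chains of type IV collagen, the collagen of basement membranes, COL4A1 rose and COL4A2 did not pass. COL4A1 was at 61.5 and 56.5 FPKM with siOGT1, 56.2 and 56.5 with siOGT2, and 51.7 and 50.5 with siNC, and rose by 0.17 ± 0.04 (adjusted p = 0.0066). It passed with siOGT1 (0.20, adjusted p = 0.00897) and with siOGT2 (0.14, adjusted p = 0.027). COL4A2, whose chain joins COL4A1 chains in the same trimer, was at 35.4 and 35.2 FPKM with siOGT1, 35.1 and 35.2 with siOGT2, and 36.7 and 35.5 with siNC, a difference of -0.03 (95% interval -0.10 to 0.03, adjusted p = 0.374). The difference between the chains was not tested. The call of COL4A1 for the mean of both siRNAs was lost without siNC replicate 2 (adjusted p = 0.0699), that for siOGT1 likewise (0.072), and that for siOGT2 without any 1 of the 4 libraries compared (0.0727 to 0.139). The genes lie head to head on chromosome 13 and are known to be transcribed in opposite directions from the stretch between them. It is printed because both chains start from it, as the plus strand between the RefSeq start sites (GRCh38.p14, chr13:110307158-110307283, 126 bases). Capitals mark the CCAAT box (CCAAT) and the GC box (GGGCGG), each found once, on the plus strand, in a search of both strands.
COL4A1 to COL4A2: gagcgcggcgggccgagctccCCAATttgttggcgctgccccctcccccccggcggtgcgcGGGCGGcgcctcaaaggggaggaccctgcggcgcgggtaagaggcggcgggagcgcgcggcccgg
The stretch is 80.2% G and C and holds 20 CpG sites. In windows of the same length from 35116 RefSeq promoters, searched on both strands, the CCAAT box was present in 21.1% and the GC box in 34.6%. In GENCODE release 29 the genes overlap at this end, since COL4A1 runs to base 110307233 and COL4A2 starts at base 110305812, but none of their exon bases are shared with each other. The other tested type IV chains were COL4A5, on the X chromosome, which averaged 6.47 FPKM with siOGT1, 6.81 with siOGT2 and 5.98 with siNC, and COL4A4, which averaged 1.01, 1.22 and 1.09 FPKM. COL4A5 passed only for siOGT2 (0.16, adjusted p = 0.0481; for the mean of both siRNAs 0.13, adjusted p = 0.0702), and that call was lost without any 1 of the 4 libraries compared (0.108 to 0.173). The siOGT2 calls of COL4A1 and COL4A5 were also lost under equal FPKM sums (0.0616 and 0.0868) and the trimmed mean scaling (0.129 and 0.136), and that of COL4A5 under quantile normalization (0.098). COL4A4 did not pass in any comparison.

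Among the other network and filament collagens, COL8A1 fell. This chain of type VIII collagen, a short network collagen of vessels and the cornea, had 7.94 and 7.76 FPKM with siOGT1, 7.20 and 6.84 with siOGT2, and 8.92 and 8.13 with siNC. All 4 knockdown libraries lay below both siNC libraries, and the change was -0.18 ± 0.05 (adjusted p = 0.0176), with -0.25 for siOGT2 (adjusted p = 0.00658) and -0.11 for siOGT1 (adjusted p = 0.203). The call for the mean was lost without siNC replicate 1 (adjusted p = 0.174), and that for siOGT2 without siNC replicate 1 (0.0538) or siOGT2 replicate 2 (0.0505). The type VI chains, which form beaded filaments around cells, passed with 1 siRNA each. COL6A1 averaged 36.1 ± 0.139 FPKM with siOGT1, 38.3 ± 0.0323 with siOGT2 and 39.1 ± 0.022 with siNC (SD, n = 2 each) and passed only with siOGT1 (-0.11, adjusted p = 0.0325), a call lost without any 1 of the 4 libraries compared (0.0843 to 0.137). COL6A2, its neighbour on chromosome 21, had 54.0 and 52.5 FPKM with siOGT1, 57.9 and 58.7 with siOGT2, and 54.0 and 54.0 with siNC, and passed only with siOGT2 (0.11, adjusted p = 0.0213), a call also lost without any 1 of the 4 libraries compared (0.0586 to 0.108), under equal FPKM sums (0.0641) and under the trimmed mean scaling (0.148). COL7A1, the anchoring fibril collagen, and COL9A3 did not pass in any comparison.

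Of the laminins, LAMC1 and LAMA4 rose and none fell for the mean of both siRNAs. LAMC1 (chr1:183023460-183145592, plus strand) had 97.4 and 93.4 FPKM with siOGT1, 95.1 and 97.9 with siOGT2, and 87.0 and 88.4 with siNC. The groups did not overlap, and the change of 0.13 ± 0.03 (adjusted p = 0.00847) was similar in size with siOGT1 (0.12, adjusted p = 0.0316) and siOGT2 (0.14, adjusted p = 0.0109). LAMA4, an alpha chain of mesenchymal and vascular basement membranes, had 3.50 and 3.48 FPKM with siOGT1, 3.88 and 4.04 with siOGT2, and 3.34 and 3.12 with siNC, a change of 0.16 ± 0.05 (adjusted p = 0.033). With siOGT2 it was 0.23 (adjusted p = 0.0116) and with siOGT1 0.09 (adjusted p = 0.314). LAMB1, the beta chain of the laminins that LAMC1 most often joins, had 13.4 and 12.01 FPKM with siOGT1, 14.6 and 15.2 with siOGT2, and 15.4 and 14.7 with siNC. It fell with siOGT1 (-0.23, adjusted p = 0.0189), while siOGT2 differed from siNC by -0.02 (95% interval -0.14 to 0.10, adjusted p = 0.845). LAMB3, the beta chain of the epithelial laminin that anchors skin cells, had 20.6 and 19.6 FPKM with siOGT1, 21.5 and 24.7 with siOGT2, and 20.4 and 20.0 with siNC, and passed only with siOGT2 (0.18, adjusted p = 0.0349).

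The second siOGT2 library carried much of the LAMB3 difference, which without it had an adjusted p of 0.222 (0.0976 without siNC replicate 1 and 0.148 without siNC replicate 2). That call was also lost under equal FPKM sums (0.0517), quantile normalization (0.0543) and the trimmed mean scaling (0.0977). LAMC1 lost its call for the mean without siNC replicate 1 (adjusted p = 0.0803), its siOGT2 call without that library (0.0725) or siOGT2 replicate 2 (0.0824), and its siOGT1 call without siNC replicate 1 (0.163), siNC replicate 2 (0.102) or siOGT1 replicate 1 (0.138). Both single siRNA calls of LAMC1 were also lost under the trimmed mean scaling (0.123 for siOGT1 and 0.065 for siOGT2). LAMA4 lost its call for the mean under trimmed mean scaling (0.0811) or quantile normalization (0.0684), without either siNC library (0.0687 and 0.214), without either siOGT1 library (0.0651 and 0.0611) and without siOGT2 replicate 2 (0.0805), and its siOGT2 call without siNC replicate 2 (0.0769) or siOGT2 replicate 2 (0.0708). LAMB1 lost its siOGT1 call without siNC replicate 1 (0.123), siNC replicate 2 (0.0553) or siOGT1 replicate 2 (0.0996). LAMA5, the alpha chain of most adult basement membranes, averaged 3.23 FPKM with siOGT1, 3.53 with siOGT2 and 3.06 with siNC and did not pass (0.11, 95% interval -0.01 to 0.23).

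Among the integrin receptors, ITGAV and ITGB1 rose and ITGA2 and ITGA5 fell. ITGAV (chr2:186590065-186680901, plus strand) encodes the alpha subunit of receptors for vitronectin and other ligands with an RGD motif. It had 37.7 and 37.1 FPKM with siOGT1, 41.1 and 38.4 with siOGT2, and 32.3 and 33.8 with siNC. It changed by 0.22 ± 0.03 (adjusted p = 0.00175), with 0.18 for siOGT1 (adjusted p = 0.0164) and 0.26 for siOGT2 (adjusted p = 0.00131). ITGB1 (chr10:32900319-33005792, minus strand) encodes the common beta subunit of the collagen, laminin and fibronectin receptors. It had 97.7 and 91.2 FPKM with siOGT1, 100 and 99.4 with siOGT2, and 85.8 and 85.6 with siNC. Both siNC libraries lay below all 4 knockdown libraries, and the change was 0.18 ± 0.03 (adjusted p = 0.00272), with 0.14 for siOGT1 (adjusted p = 0.0273) and 0.22 for siOGT2 (adjusted p = 0.00173). ITGA2 (chr5:52989326-53094779, plus strand) encodes the alpha subunit that joins ITGB1 in a receptor for fibrillar collagen. It had 3.62 and 3.94 FPKM with siOGT1, 4.11 and 4.18 with siOGT2, and 5.13 and 4.87 with siNC. It fell to 75.5% of the siNC mean with siOGT1 and to 82.8% with siOGT2, a change of -0.28 ± 0.05 (adjusted p = 0.00289), the largest in size among the 39 genes for the mean of both siRNAs. ITGA5, which joins ITGB1 in the classical fibronectin receptor, had 37.7 and 34.4 FPKM with siOGT1, 34.1 and 34.2 with siOGT2, and 39.7 and 37.5 with siNC. Its first siOGT1 library overlapped with siNC, and the change was -0.14 ± 0.04 (adjusted p = 0.0294), with -0.17 for siOGT2 (adjusted p = 0.0178) and -0.10 for siOGT1 (adjusted p = 0.178).

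ITGAV, ITGB1 and ITGA2 passed for the mean of both siRNAs in every setting run. ITGA2 also did for siOGT1 alone, and ITGAV and ITGB1 for siOGT2 alone. The siOGT1 call of ITGAV was lost without siNC replicate 1 (adjusted p = 0.12) or siOGT1 replicate 1 (0.067), that of ITGB1 without either siNC library (0.119 and 0.124) or siOGT1 replicate 1 (0.124), and the siOGT2 call of ITGA2 without siNC replicate 1 (0.0883) or either siOGT2 library (0.0631 and 0.0541). ITGA5 lost its call for the mean without either siNC library (0.236 and 0.0542) or either siOGT2 library (0.0653 and 0.0647), and its siOGT2 call without siNC replicate 1 (0.124) or either siOGT2 library (0.0738 and 0.0733). ITGA4, an alpha subunit that binds VCAM1 and fibronectin, averaged 1.78 FPKM with siOGT1, 2.06 with siOGT2 and 1.61 with siNC and passed only with siOGT2 (0.23, adjusted p = 0.0337), a call lost without any 1 of the 4 libraries compared (0.0636 to 0.153), under quantile normalization (0.0521) and under the trimmed mean scaling (0.0641). The trimmed mean scaling also ended the siOGT1 call of ITGB1 (0.104). The collagen receptor subunit ITGA1 averaged 9.13 FPKM with siOGT1, 8.65 with siOGT2 and 8.77 with siNC, with an interval of -0.07 to 0.11 around a difference of 0.02. The laminin receptor subunit ITGA7 averaged 4.52 FPKM with siOGT1, 4.63 with siOGT2 and 4.19 with siNC and did not pass (0.10, adjusted p = 0.113). ITGA10 (0.02, adjusted p = 0.824) and ITGAE (0.08, adjusted p = 0.339) did not pass. ITGB3 and ITGB8, which pair with ITGAV, did not pass either (0.09, adjusted p = 0.169, and 0.12, adjusted p = 0.189). For ITGB3, 51.6% of the exon bases in GENCODE release 29 are shared with AC068234.1 on the same strand. Its reads are uncertain if the annotation used for counting, which is not known, had that overlap. ITGA1 shares 5.63% of its exon bases with genes on the same strand, PELO among them, and 1.22% with genes on the opposite strand. In ITGAE, ITGA6, LAMB1, LAMA5 and ITGAV, 7.59%, 5.37%, 3.57%, 2.53% and 2.47% of exon bases lie over exons of genes on the opposite strand. Overlap of that kind matters only where reads are counted without regard to strand, and the strand of the libraries was not given.

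The siRNAs themselves differed at 6 of the 39 genes, all lower with siOGT1 than with siOGT2. This was 15.4% of those tested, against 16.6% of all genes (8.35% higher and 8.24% lower), and the median difference was -0.08 against -0.01. COL10A1 (chr6:116118923-116158747, minus strand), the network collagen of growing cartilage, differed most. It had 0.794 and 0.792 FPKM with siOGT1, 2.15 and 2.40 with siOGT2, and 1.61 and 1.80 with siNC. The siRNAs lay on opposite sides of siNC, at 46.5% of its mean with siOGT1 and at 133% with siOGT2. The difference was -0.87 ± 0.07 between the siRNAs (adjusted p = 7.84e-05), -0.59 for siOGT1 against siNC (adjusted p = 0.000568) and 0.27 for siOGT2 against siNC (adjusted p = 0.0174), each understated by the added 1. These values rest on 56 and 65 reads in the siOGT1 libraries, 149 and 154 in the siOGT2 libraries, and 124 and 139 in the siNC libraries. The siOGT2 call was lost without siNC replicate 1 (adjusted p = 0.111) or siOGT2 replicate 2 (0.11), and the other COL10A1 calls held in every setting run.

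The other 5 genes differed by less. ITGB4, the beta subunit that joins ITGA6 in the laminin receptor of hemidesmosomes, had 4.23 and 3.69 FPKM with siOGT1, 5.04 and 5.27 with siOGT2, and 4.10 and 3.82 with siNC, a difference of -0.31 ± 0.07 between the siRNAs (adjusted p = 0.0113). It rose with siOGT2 (0.31, adjusted p = 0.00611) and differed from siNC by 0.00 with siOGT1 (95% interval -0.15 to 0.15). ITGA6 itself had 27.4 and 26.9 FPKM with siOGT1, 29.5 and 30.0 with siOGT2, and 28.2 and 27.6 with siNC, and differed between the siRNAs by -0.13 ± 0.03 (adjusted p = 0.0293). Its siOGT1 libraries lay below both siNC libraries and its siOGT2 libraries above them, but neither siRNA passed against siNC. ITGB5, which joins ITGAV, had 48.1 and 44.8 FPKM with siOGT1, 50.5 and 51.7 with siOGT2, and 49.6 and 48.1 with siNC, a difference of -0.14 ± 0.04 (adjusted p = 0.044). For LAMB1 and COL6A2 the differences were -0.21 ± 0.05 (adjusted p = 0.026) and -0.13 ± 0.03 (adjusted p = 0.0183). Without siOGT1 replicate 2 or siOGT2 replicate 2 the calls were lost for ITGB4 (adjusted p = 0.0662 and 0.0813), LAMB1 (0.136 and 0.15), COL6A2 (0.0858 and 0.111), ITGA6 (0.118 and 0.15) and ITGB5 (0.216 and 0.208). Without siOGT2 replicate 1 they were lost for LAMB1 (0.0659), COL6A2 (0.0615), ITGA6 (0.0768) and ITGB5 (0.0999), and ITGA6 also lost its call without siOGT1 replicate 1 (0.0641). ITGB5 was also lost when either siNC library was left out of the shared estimate of spread (0.0669 and 0.0671), under equal FPKM sums (0.0725), under the trimmed mean scaling (0.0658) and in a fit of only the siOGT1 and siOGT2 libraries (0.0664). ITGA6 was also lost under equal FPKM sums (0.0534).

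**Figure D3:**
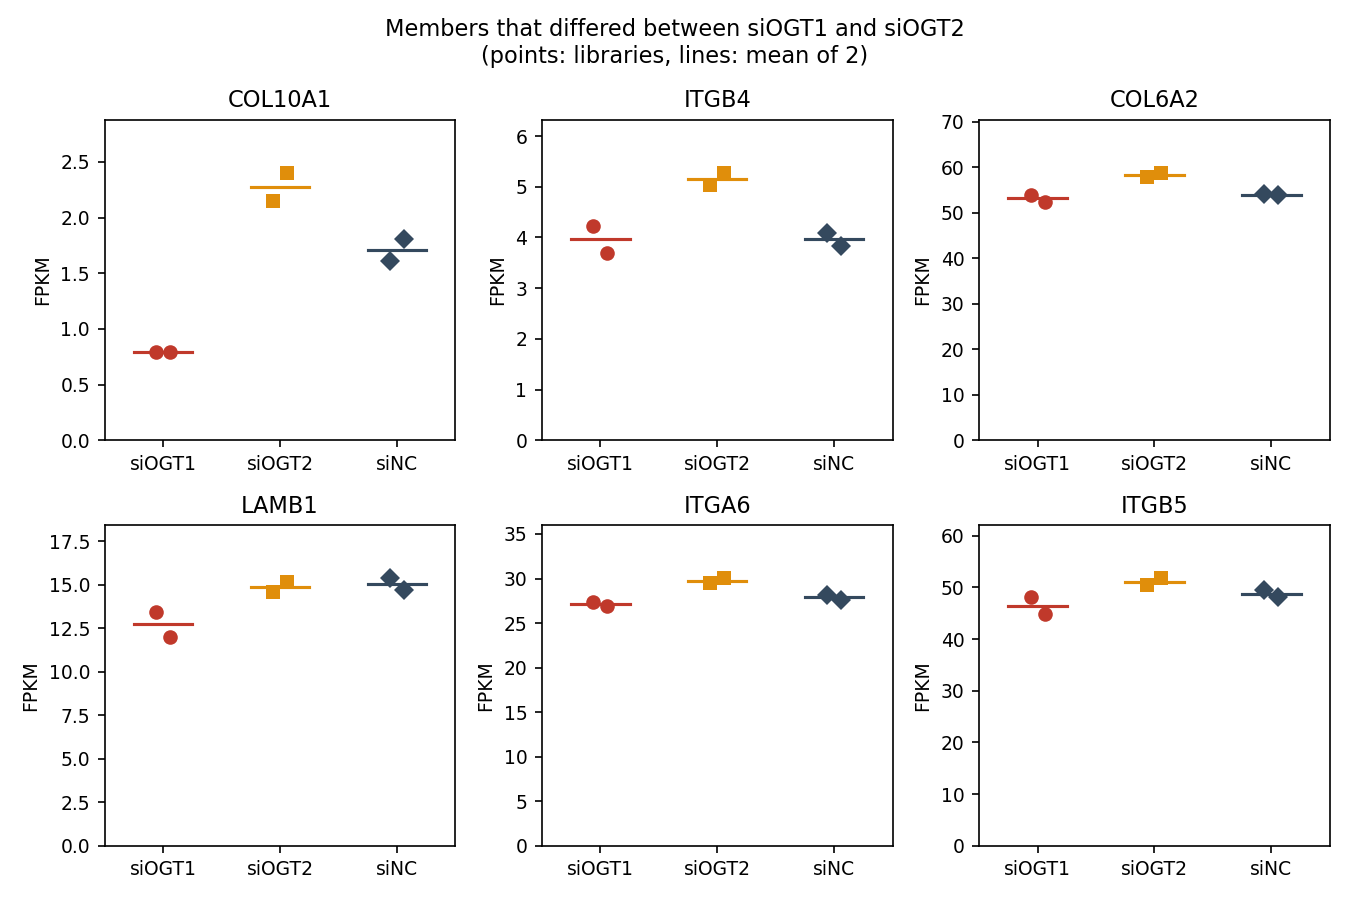
FPKM in each siOGT1, siOGT2 and siNC library for the 6 genes that differed between the siRNAs (points are libraries, lines the mean of 2, axes start at 0). COL10A1 has siOGT1 at 0.794 and 0.792, below siNC at 1.61 and 1.80, and siOGT2 above; for LAMB1 the siOGT1 libraries alone stand apart.

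An siRNA can also lower other mRNAs whose 3′ untranslated region (3′ UTR) pairs with its seed, and the siRNA sequences were not used here. Earlier work on these same libraries had picked the 7-base words GCTCTTA and TCGGAGA from 3′ UTRs, so the following is a description and no independent evidence. A single GENCODE release 29 transcript was searched per gene, the one with the longest coding sequence. Of 10366 tested genes with a 3′ UTR there, 840 held GCTCTTA (8.1%). So did 3 of the 38 described here: COL10A1, COL4A4 and ITGB5. The sites are shown because COL10A1 and ITGB5 were among the genes lower with siOGT1 than with siOGT2. Each is a window of 30 bases on the minus strand of GRCh38, at chr6:116119456-116119485, chr2:227005652-227005681 and chr3:124762292-124762321 in turn, with the word in capitals.
COL10A1: tacttgttaaaGCTCTTAtataaaaaagcc
COL4A4: atttgtaatgaGCTCTTAtatgcagaacac
ITGB5: cattcctgcttGCTCTTAgaaaatctttca
COL4A4 differed between the siRNAs by -0.14 (95% interval -0.30 to 0.01, adjusted p = 0.192). Over all genes searched, the median difference between the siRNAs was -0.09 with the word and -0.00 without it. LAMB1, COL6A2 and ITGB4 held neither word in the transcript searched, whose 3′ UTR had only 148, 297 and 263 bases in turn. Other transcripts of these genes were not searched, and ITGA6 was not among the genes searched. TCGGAGA, present in 190 genes (1.83%), was in none of the 38. Whether the words have a part in any of these differences was not tested.

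Chains that assemble with each other did not always keep their ratio. The ratios were computed after the values had been seen and are given as a description, with no test. The ratio of COL1A1 to COL1A2 was 2.22 and 2.22 with siOGT1, 2.14 and 2.14 with siOGT2, and 2.22 and 2.22 with siNC, level with siOGT1 and slightly lower with siOGT2. COL4A1 to COL4A2 stood at 1.74 and 1.60 with siOGT1, 1.60 and 1.61 with siOGT2, and 1.41 and 1.42 with siNC, higher in all 4 knockdown libraries. COL6A1 to COL6A2 was lower in all 4, with 0.671 and 0.687 with siOGT1, 0.660 and 0.652 with siOGT2, and 0.723 and 0.724 with siNC. The beta laminins LAMB1 and LAMB2 were lower relative to LAMC1 in all 4: LAMB1 to LAMC1 was 0.138 and 0.129 with siOGT1, 0.153 and 0.155 with siOGT2, and 0.177 and 0.166 with siNC, and LAMB2 to LAMC1 was 0.370 and 0.380 with siOGT1, 0.395 and 0.398 with siOGT2, and 0.424 and 0.437 with siNC. LAMB3 to LAMC1 was 0.211 and 0.210 with siOGT1, 0.226 and 0.253 with siOGT2, and 0.235 and 0.226 with siNC, lower only with siOGT1. Among receptors, ITGA5 to ITGAV was 0.999 and 0.927 with siOGT1, 0.829 and 0.892 with siOGT2, and 1.23 and 1.11 with siNC, lower in all 4 knockdown libraries. ITGA5 to ITGB1 was 0.386 and 0.378 with siOGT1, 0.340 and 0.344 with siOGT2, and 0.463 and 0.439 with siNC, again without overlap. ITGAV to ITGB1 was 0.386 and 0.407 with siOGT1, 0.410 and 0.386 with siOGT2, and 0.377 and 0.394 with siNC, with overlapping groups. Each ratio of different genes depends on the lengths the authors used, and its comparison between libraries does not.

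**Figure D4:**
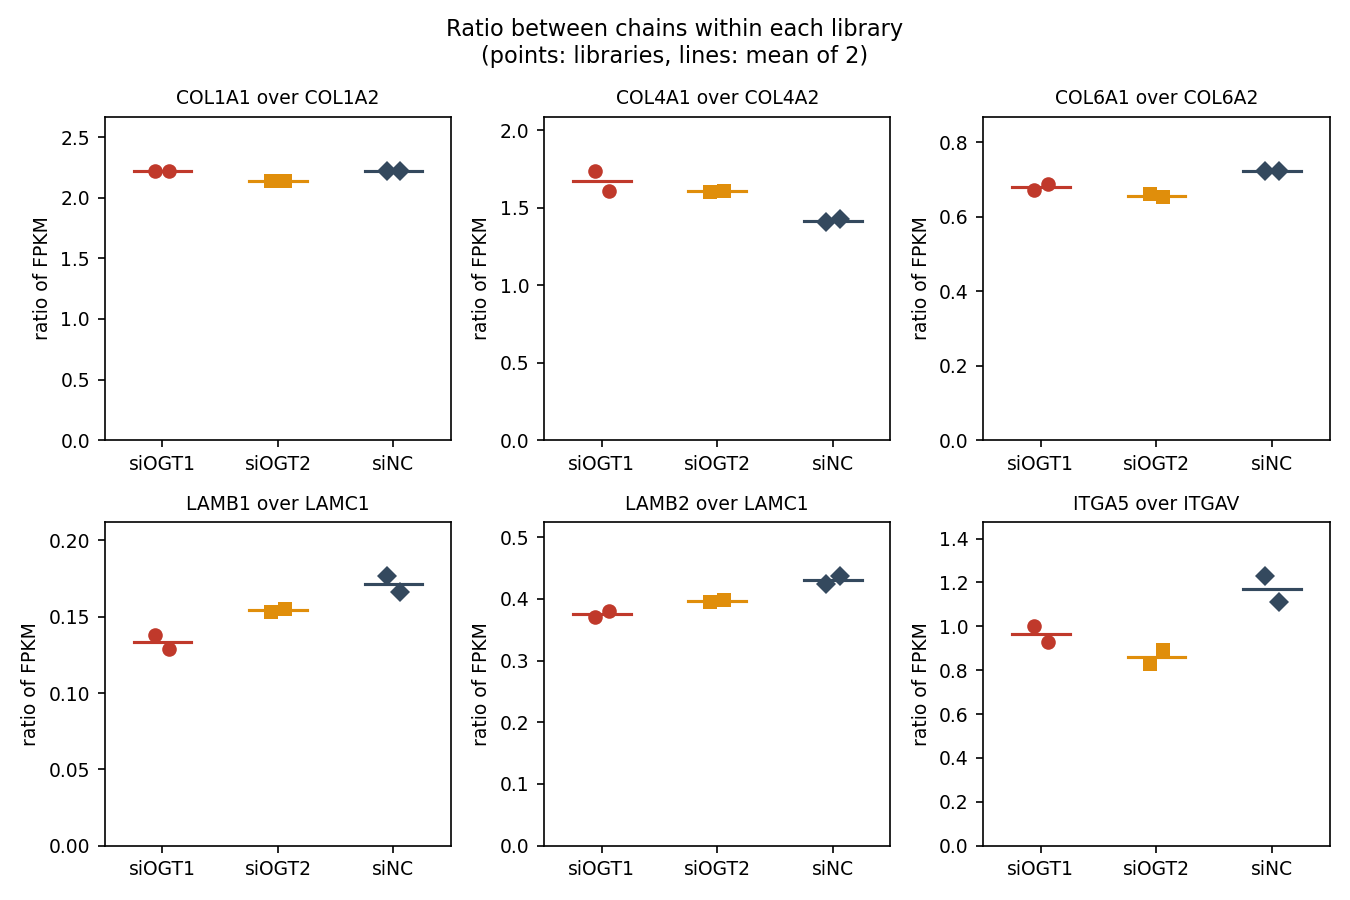
Ratio of FPKM between 2 chains in each siOGT1, siOGT2 and siNC library (points are libraries, lines the mean of 2, axes start at 0). COL1A1 over COL1A2 is 2.14 with siOGT2 and 2.22 with siOGT1 and siNC, COL4A1 over COL4A2 is higher with both siRNAs (1.60 to 1.74) than with siNC (1.41 and 1.42), and the other 4 ratios are lower with both siRNAs than with siNC.

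As a share of all reads, the families were small and moved little. The 44 collagens together took 0.805% and 0.755% of the reads with siOGT1, 0.781% and 0.785% with siOGT2, and 0.742% and 0.718% with siNC. The 12 laminins took 0.158% and 0.150% with siOGT1, 0.159% and 0.166% with siOGT2, and 0.152% and 0.153% with siNC. The 26 integrins took 0.471% and 0.447% with siOGT1, 0.478% and 0.476% with siOGT2, and 0.436% and 0.432% with siNC. The siOGT1 laminin shares lay on both sides of siNC, whereas the shares of collagens and integrins were higher in all 4 knockdown libraries. By summed FPKM the integrins overlapped, with 405.6 in siOGT1 replicate 2 and 406.2 in siNC replicate 1. These sums are led by a few genes such as COL1A1, ITGA3 and ITGB1 and carry no test.

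Genes that act with these families are given for the mean of both siRNAs, and their counts are to be read against the 31.1% of all tested genes called (19.4% higher, 11.8% lower, median 0.04). Of 30 tested genes for collagen synthesis and cross-linking, 9 were higher and none lower, with a median change of 0.06, a share called near that background. Among them were CREB3L1, a transcription factor that drives collagen secretion (14.5 FPKM with siOGT1, 14.9 with siOGT2 and 11.8 with siNC, a change of 0.30 ± 0.04, adjusted p = 0.000962), and PXDN, which cross-links type IV collagen (54.4, 51.4 and 46.3 FPKM for the same groups, 0.19 ± 0.03, adjusted p = 0.001). Of 8 tested partners in the basement membrane, 4 were higher and 1 lower (median 0.12). NID2, a nidogen that links laminin to type IV collagen, was at 3.20 FPKM with siOGT1, 2.98 with siOGT2 and 2.25 with siNC (0.33 ± 0.06, adjusted p = 0.00427), and the proteoglycan AGRN was at 13.0, 10.97 and 14.7 FPKM (-0.28 ± 0.04, adjusted p = 0.000926). Of 18 tested other integrin ligands, 4 were higher and 3 lower (median 0.00), with L1CAM, an adhesion molecule, at 96.3 FPKM with siOGT1, 97.4 with siOGT2 and 80.0 with siNC (0.27 ± 0.03, adjusted p = 0.000179) and CCN2, a matricellular protein, at 187, 189 and 218 FPKM (-0.21 ± 0.03, adjusted p = 0.000549).

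Of 19 tested matrix receptors other than integrins, 9 were higher and 1 lower (median 0.07), where 19.4% of all tested genes were higher and 11.8% lower. The syndecan SDC1 was at 6.37 FPKM with siOGT1, 7.61 with siOGT2 and 4.56 with siNC (0.52 ± 0.04, adjusted p = 2.12e-05), and DDR2, a tyrosine kinase receptor for fibrillar collagen, at 45.3, 48.3 and 39.3 FPKM (0.25 ± 0.03, adjusted p = 0.000876). Of 45 tested adaptors of integrin adhesions, 12 were higher and 2 lower (median 0.04), a share at the background of 31.1%. The tensin TNS2 was at 5.16 FPKM with siOGT1, 5.46 with siOGT2 and 3.95 with siNC (0.35 ± 0.04, adjusted p = 0.000404), and the scaffold NEDD9 at 2.28, 1.89 and 3.17 FPKM (-0.44 ± 0.05, adjusted p = 0.000307). Of 22 tested matrix proteases and inhibitors, 6 were higher and 4 lower (median 0.08). PLAU, the urokinase, was at 6.51 FPKM with siOGT1, 10.3 with siOGT2 and 5.93 with siNC (0.41 ± 0.05, adjusted p = 0.00045), and its receptor PLAUR at 4.57, 5.44 and 6.88 FPKM (-0.40 ± 0.05, adjusted p = 0.000278). PLAU passed with siOGT2 (0.71, adjusted p = 3.32e-05) but not with siOGT1 (0.12, adjusted p = 0.211). In the direct test of the siRNAs, PLAU, PLAUR and SDC1 were lower with siOGT1 than with siOGT2 (adjusted p = 0.000215, 0.0265 and 0.0115). AGRN was higher (adjusted p = 0.0111).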

How the data were processed

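FPKM values of 20036 Ensembl genes in 6 libraries were deposited by the authors. Per the submitters' processing notes, cutadapt 1.15 and HISAT2 were used, with GRCh38 as the genome. The counting program, the annotation and the strand of the libraries were not given in the sources used here. Symbols were found through a gene name table for 20011 identifiers, and coordinates through GENCODE release 29.

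The 10547 genes averaging at least 1 FPKM were tested on log2(FPKM + 1) in 1 model of all 6 libraries (limma 3.58.1 in R 4.3.3, eBayes with an intensity trend, no block), two-sided, with Benjamini-Hochberg adjustment over all tested genes and a threshold of 0.05. Residual degrees of freedom were 3 and prior ones 6.31. Intervals are 95% intervals from that model. Whole reads were recovered from the FPKM values for depth, gene lengths and 1 alternative test. The script was tested on simulated data. Promoters are RefSeq's (GRCh38.p14), and 58 of the 82 genes matched that table.

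The genes and lists were chosen with earlier results of these data known. Values per library are given for OGT, the 12 called genes with the largest change for the mean of both siRNAs, genes called between the siRNAs, and the 3 genes of highest level in each family. LAMB3 is among the last. From each other list, up to 4 genes of smallest p could be named. Alternatives covered the pseudocount, filter, scaling, variance model, block, samples in the fit, recovered reads, and each library left out. The values of 1 laminin gene are not reported here, though counts and sums over the genes include it.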

Additional observations from a re-analysis of the deposited data

Results flagged for a closer look

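The 6 genes below are listed because a direct test of siOGT1 against siOGT2 passed. At these genes the siRNAs' effects differed in the main fit, under the same control. This was 15.4% of the genes tested here, against 16.6% of all tested genes. Of these calls between the siRNAs, only that of COL10A1 held in every setting run. The log2 difference, siOGT1 minus siOGT2, was -0.87 for COL10A1, -0.31 for ITGB4, -0.21 for LAMB1, -0.14 for ITGB5, -0.13 for COL6A2 and -0.13 for ITGA6. With groups of 2 libraries, no test for a single outlying library was made.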

How the results depend on the processing

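Of 47 calls of single genes over the 4 comparisons, 12 held in every setting, 35 were lost in at least 1 and none reversed (16 settings for the mean of both siRNAs and 17 for the others). Without the filter, the calls of COL1A1, COL1A2, COL3A1, COL8A1, ITGA5 and LAMA4 were lost for the mean of both siRNAs. For siOGT1 those lost were COL3A1, COL4A1, COL5A2, ITGAV, ITGB1, LAMB1 and LAMC1. For siOGT2 they were COL1A2, COL3A1, COL4A1, COL4A5, ITGA4, ITGA5 and LAMB3. Between the siRNAs they were ITGB4, ITGB5 and LAMB1. The number called for the mean of both siRNAs was 13, with 7 without the low-value filter, 22 with voom on recovered reads, and 6 to 16 when a library was left out (8 without siNC replicate 1, 6 without siNC replicate 2). For siOGT1 it was 10, with 3 without the filter, 4 without the intensity trend, and 3 to 10 when a library was left out (3 without either siNC library, 5 without siOGT1 replicate 1). For siOGT2 it was 18, with 11 without the filter, 10 under the trimmed mean of log ratios, and 5 to 20 when a library was left out (7 without siNC replicate 1, 10 without siNC replicate 2, 10 without siOGT2 replicate 1, 5 without siOGT2 replicate 2). For siOGT1 against siOGT2 it was 6, with 2 without the intensity trend, 14 with voom, and 1 to 6 when a library was left out (2 without siOGT1 replicate 2, 3 without siOGT2 replicate 1, 1 without siOGT2 replicate 2). Leaving out a library leaves its group with 1, which is assumed to vary like the others; the cause of the other shifts was not tested. With the replicate number as a block the counts were 13, 10, 18 and 6, as without it. Same-numbered libraries did not deviate together (r = -0.02, -0.03 and 0.05 between the groups). The labels do not say whether they share a culture or a batch. Without the intensity trend, the calls of COL1A1, COL1A2 and ITGA5 were lost for the mean of both siRNAs. For siOGT1 those lost were COL3A1, COL5A2, COL6A1, ITGAV, ITGB1 and LAMC1. For siOGT2 they were COL1A2, COL3A1, COL4A1, COL4A5, COL6A2 and LAMB3. Between the siRNAs they were COL6A2, ITGA6, ITGB5 and LAMB1. With 2 libraries a group, a gene that did not pass can still have changed.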
